A study of Mus musculus with 2148 samples.

Results

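Cortical thymic epithelial cells (cTECs) of newborn wild-type (WT) mice were compared with cTECs of adult WT mice. The members were all cells labelled as WT cTEC, which made up 10.91% of the single cells of the series. All mice were C57BL/6, with no deleted gene and no treatment. Newborn mice were 1 day old with sex given as unknown, and their cells lay on plates 16, 17, 18, 19 and 20, with 37, 24, 22, 30 and 26 cells, 7.02% of the series. Adult cTECs came from male mice of 6 weeks, 77 cells or 3.89% of the series, and lay on plate 6 alone, which held no other cells of the series. The cells had been sorted as CD45-negative, EpCAM-positive and Ly51-positive, and RamDA-seq, which reads total RNA along the whole transcript, gave 1 library per cell. Mice are not numbered in the labels, so the adult group was 1 plate and mice were not replicated. Age, plate and the sex of the mice could not be told apart, and no test of newborn against adult was possible.

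cTECs form the outer zone of the thymus, where they attract progenitors, commit them to the T lineage through Notch ligands and present the peptides on which thymocytes are positively selected. They cut these peptides with a proteasome that holds the cTEC-specific subunit Psmb11 and with the protease Prss16. The transcription factor Foxn1 drives this programme. The thymus grows fast around birth and starts to shrink in young adults.

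A level here is CPM, reads of a gene per 1000000 reads on genes, taken from the summed reads of all cells of a plate or of a group. The spread is that of the 5 newborn plates and of single cells. A gene was called higher in a group when the summed CPM differed by at least 2-fold and the adult plate lay outside the range of all 5 newborn plates. Only genes whose mean of the 2 group levels reached 5 CPM were considered. Newborn cells had a median of 695844 reads (244481 to 1710375) and adult cells 862537 (262848 to 1422774). Thinned to 200000 reads, a newborn cell showed a median of 11956 genes and an adult cell 11408.

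The cortical genes that define the sort were strongly read at both ages, but adult cells were more mixed. Psmb11 (ENSMUSG00000072423, chromosome 14, 54621433 to 54629556, GRCm38) had 834.9, 837.8, 1216.8, 1015.9 and 844.3 CPM on the 5 newborn plates and 732.4 CPM on the adult plate. In single newborn cells its median was 924.7 CPM with quartiles of 480.4 and 1385.9. In adult cells the median was 499.5 CPM, with quartiles as far apart as 7.49 and 1308.5. Adult cells thus spread from almost no Psmb11 to the highest newborn levels. Prss16 had 1629.1, 1767.1, 2735, 1994.2 and 1698.6 CPM on the newborn plates and 1765.6 CPM on the adult plate, inside the newborn range. Enpep, which encodes the Ly51 antigen of the sort gate, had 175.3, 158.1, 237.4, 179.1 and 205.2 CPM on the newborn plates and 392.8 CPM on the adult plate. It was called higher in adult cTECs (2.12-fold, 95% counting interval 2.08 to 2.16). Here and below intervals of ratios are exact, cover counting error of reads only, and say nothing of mice. Intervals of shares count cells as independent draws, although cells of a plate are not replicates of an age, and likewise say nothing of mice.

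At least 2 of these 3 markers reached 50 CPM in 96.4% of newborn cells (exact 95% binomial interval 91.81 to 98.82) and in 59 of 77 adult cells (76.62%, 65.59 to 85.52). Psmb11 reached 200 CPM in 89.93% of newborn cells (83.68 to 94.38) and in 44 adult cells (57.14%, 45.35 to 68.37), and stayed under 50 CPM in 11 newborn and 30 adult cells. By these markers the label held for nearly all newborn cells and for a smaller share of the adult cells. Counts of genes and many levels are also given for the cells with at least 200 CPM of Psmb11, a limit chosen after the values were seen.

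**Figure D1:**
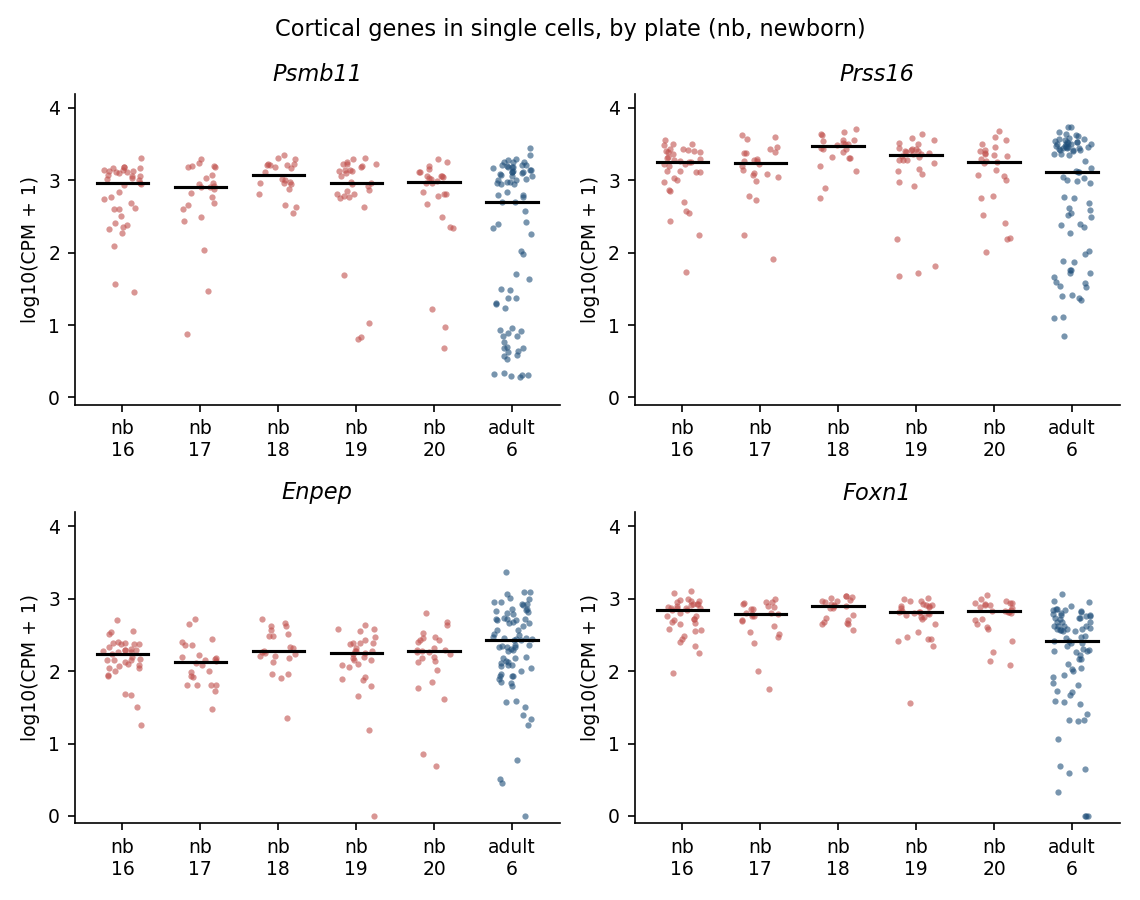
Expression of Psmb11, Prss16, Enpep and Foxn1 in each cTEC as log10(CPM + 1), by plate; each point is 1 cell, red for newborn plates 16 to 20 and blue for the adult plate 6, and bars mark medians. Newborn cells lie close together in Psmb11, whereas 30 of the 77 adult cells lie under 50 CPM.

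Of 12803 genes considered, 690 were higher in newborn cTECs (5.39%) and 8.72% in adult cTECs. The median log2 ratio of newborn over adult was -0.0037 over all genes considered. A further 73 genes with at least 2-fold more in newborn and 40 with at least 2-fold more in adult lay within the range of the newborn plates and were not called. With the cells of at least 200 CPM of Psmb11, 6.89% of 12262 genes were higher in newborn and 5.93% in adult. With the marker-positive cells, the percentages of 12397 genes were 5.97 and 5.69. Of the genes called higher in newborn, 77.54% were also called in Psmb11-high cells, where they made up 63.31% of the calls, and none had the other sign. Of the genes called higher in adult, 46.64% were also called in Psmb11-high cells, where they made up 71.66% of the calls, and 20.41% had the other sign.

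**Figure D2:**
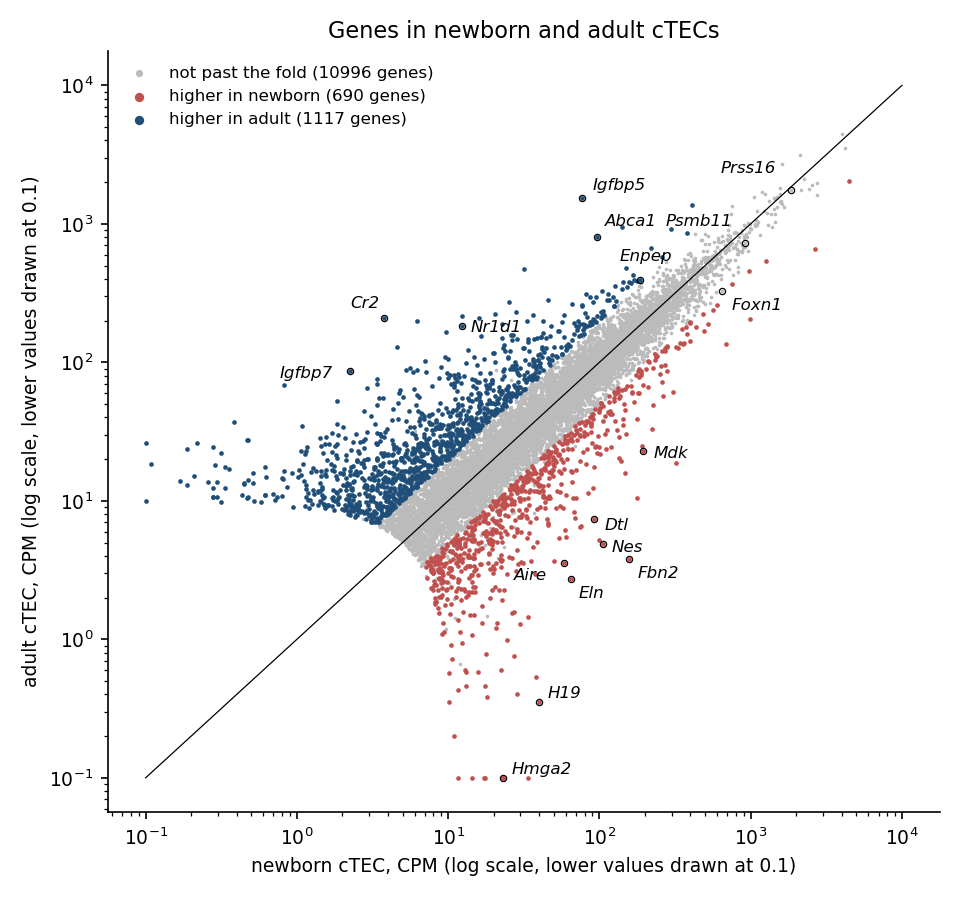
CPM of 12803 genes in newborn (x axis) and adult (y axis) cTECs, both on log scales; red points are the 690 genes higher in newborn, blue points the 8.72% higher in adult, grey the rest, and the line marks equal levels. Psmb11 and Prss16 lie near the line, whereas Fbn2, Eln, H19 and Hmga2 lie on the newborn side and Igfbp5, Nr1d1 and Igfbp7 on the adult side.

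Genes of DNA replication were higher in newborn cTECs. Of the 42 genes of the S phase list, 40 were considered, 25 were higher in newborn and none in adult, against 5.39% of all genes, and all considered genes had a positive log2 ratio with a median of 1.67. Dtl, a substrate receptor of the ubiquitin ligase that acts during replication, had 88.8, 183.1, 73.7, 88.2 and 31.8 CPM on the newborn plates and 7.35 CPM on the adult plate. The lowest newborn plate was thus above the adult plate, and the summed levels differed 12.5-fold (11.4 to 13.7). Mcm5, a subunit of the replicative helicase, had 135.5 CPM in newborn (plates 53.4 to 274.3) and 20.3 CPM in adult cTECs. Uhrf1, which couples DNA methylation to replication, had 139.6 and 19.5 CPM. The chromatin remodeller Hells had 36.1, 68.8, 27.996, 34.6 and 10.99 CPM on the newborn plates and 3.69 CPM on the adult plate. Pcna, the sliding clamp, had 37.97 and 19.2 CPM and was not called.

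S phase genes are known targets of E2F factors, whose binding letters lie close to many of their start sites. In the 250 bases upstream of RefSeq start sites (GRCm38.p6), the letters TTTCCCGC, TTTCGCGC, TTTGCCGC or TTTGGCGC were searched on both strands. They were found in 9 of 33 promoters of the S phase list (30 of 42 genes had an entry), in 7 of 21 promoters of its genes higher in newborn and in 1.86% of all 32851 promoters. The stretches below belong to 3 of the 7 genes, chosen because their match lay outside annotated exons. They are printed 5′ to 3′ on the gene's strand, with the match, on either strand, in capitals. They lie at chr1:191575545-191575635 (minus strand, Dtl), chrX:93632156-93632305 (minus strand, Pola1, the catalytic subunit of DNA polymerase alpha) and chr2:72476009-72476158 (plus strand, Cdca7).
Dtl: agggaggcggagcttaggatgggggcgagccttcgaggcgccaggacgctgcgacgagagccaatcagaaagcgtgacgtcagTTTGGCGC
Pola1: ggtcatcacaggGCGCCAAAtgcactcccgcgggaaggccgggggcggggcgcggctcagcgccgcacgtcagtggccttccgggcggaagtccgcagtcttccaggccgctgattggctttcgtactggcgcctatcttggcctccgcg
Cdca7: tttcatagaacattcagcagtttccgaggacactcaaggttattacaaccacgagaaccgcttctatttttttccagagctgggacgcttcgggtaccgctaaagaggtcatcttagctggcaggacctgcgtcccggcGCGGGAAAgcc
The matches all began within 150 bases before the RefSeq start site. Pola1 had 38.6 CPM in newborn and 11.8 CPM in adult cTECs, and Cdca7, a cofactor of Hells, had 24.4 and 9.31 CPM. A match describes the letters only, and binding was not measured.

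Of the 50 genes of G2 and mitosis that were considered, 7 were higher in newborn and none in adult, against 5.39% and 8.72% of all genes, with a median log2 ratio of 0.93 and 48 of 50 ratios above 0. In marker-positive cells 1 of 49 was higher in newborn, with a median of 0.45. Top2a, the topoisomerase that untangles chromosomes, had 190.3, 204.4, 127.6, 41.4 and 61.8 CPM on the newborn plates and 32.7 CPM on the adult plate. Cdk1, the kinase that starts mitosis, had 61.5, 60.4, 36.4, 15.8 and 16.4 CPM on the newborn plates and 9.07 CPM on the adult plate. Mki67 had 249.3, 227.7, 161.3, 39.7 and 87.3 CPM on the newborn plates and 74.96 CPM on the adult plate, which lay inside the newborn range, so it was not called. Newborn plates differed widely in these genes, and plates 19 and 20 were the lowest in all 3. In Psmb11-high cells Top2a was not called, with a log2 ratio of 1.53. In cells with under 20 CPM of Ptprc, the CD45 gene, 15 of 49 genes were higher in newborn, against 6.21% of all genes. The log2 ratios were then 3.21 for Top2a and 1.79 for Mki67.

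In single cells the share of cells with high sums differed. The summed CPM of the S phase list had a median of 705.4 in newborn cells (313.8 to 11194) and 542.7 in adult cells (220.7 to 7647). A sum of at least 1500 CPM, a limit set after the values were seen, was found in 38 newborn cells (27.34%, 20.13 to 35.54) and in 3 adult cells (3.896%, 0.8108 to 10.97). Mki67 and Top2a both reached 20 CPM in 36 newborn cells (25.9%, 18.85 to 34.01) and 9 adult cells (11.69%, 5.486 to 21.03). By newborn plate this share was 29.73%, 45.83%, 18.18%, 23.33% and 11.54%, so the adult share was close to that of plate 20. Among cells with at least 200 CPM of Psmb11, the shares were 22.4% of newborn and 11.36% of adult cells. Without the cells that had both genes, 4.15% of 12630 genes were higher in newborn and 9.2% in adult, and of 25 S phase genes then considered 6 were higher in newborn and 1 in adult, with a median log2 ratio of 0.46. Pola1 and Cdca7 then had log2 ratios of 0.63 and 0.54, and none of 19 G2/M genes was called. Mki67 and Top2a, which chose the cells left out, are on the G2/M list. Levels of cell cycle genes without these cells, here and below, are thus not independent of that choice. Thymocyte markers without these cells also differed and are given below.

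**Figure D3:**
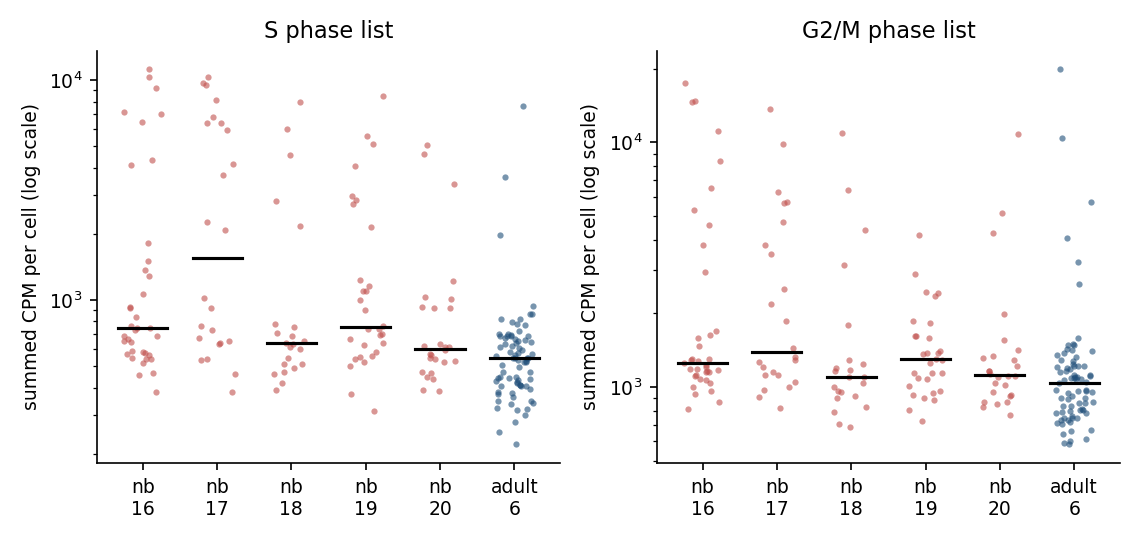
Summed CPM of the S phase list (left) and the G2/M list (right) in each cTEC on log scales, by plate; points are cells, red for newborn plates 16 to 20 and blue for the adult plate 6, and bars mark medians. At least 1500 CPM of S phase genes were found in 38 newborn cells (27.34%) and 3 adult cells (3.896%).

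Regulators of the cell cycle differed in both directions. E2f7, a repressor of E2F targets, had 61.4, 97.2, 37.9, 40.2 and 26.7 CPM on the newborn plates and 5.35 CPM on the adult plate. E2f1, an activator of S phase genes, had 16.5 CPM in newborn and 3.50 CPM in adult cTECs, and Ccne1, the cyclin of S phase entry, had 14.7 and 3.86 CPM. Without the cells that had both Mki67 and Top2a, the log2 ratios were 2.44 for E2f7, 0.70 for E2f1, -0.29 for Ccne1 and 0.14 for Cdk1. Ccnd1, a cyclin of the G1 phase, was higher in adult cTECs, with 14.4, 10.1, 9.27, 23.9 and 7.58 CPM on the newborn plates and 35.7 CPM on the adult plate. Ccnd2, another D-type cyclin, had 497.5 CPM in newborn and 262.01 CPM in adult cTECs and was not called. The inhibitors Cdkn2c and Cdkn2b were higher in adult cTECs (2.15-fold and 3.32-fold), and the imprinted inhibitor Cdkn1c was higher in newborn cTECs (2.55-fold). In Psmb11-high cells the log2 ratio of Cdkn2b was 0.30, more in newborn, and Ccnd2 was called higher in newborn at 1.21. Without the cells with at least 20 CPM of Ptprc, the CD45 gene, Cdkn2c had -0.72 and was not called. Myc had 76.4 and 61.6 CPM, with the adult plate inside the newborn range. Of the 19 genes of this list that were considered, 4 were higher in newborn and 3 in adult, against 5.39% and 8.72% of all genes.

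Of 20 genes considered on a list of fetal growth and imprinted genes, 7 were higher in newborn, against 5.39% of all genes, and 2 in adult, against 8.72%, with a median log2 ratio of 0.68. The list summed to 2213 CPM in newborn and 2623 CPM in adult cTECs. Igfbp5, a member of this list described below, made up most of the adult sum and little of the newborn sum. Hmga2, a chromatin protein of growing embryonic tissue, had 23.3, 29.5, 11.4, 29.7 and 16.5 CPM on the newborn plates and no read in the 77 adult cells. With the adult group set to a fixed floor of 3 reads, Hmga2 was 501.6-fold higher in newborn cTECs, a value that depends on this floor. H19, an imprinted non-coding RNA, had 18.6, 110.8, 34.7, 35.7 and 21.7 CPM on the newborn plates and 0.354 CPM on the adult plate. It was found in 47.5% of thinned newborn cells and 1.30% of thinned adult cells. The imprinted genes Peg3 (223.1 against 33.1 CPM), Grb10, an adaptor of growth factor receptors (262.04 against 57.5 CPM), and Ndn (18.8 against 1.98 CPM) were higher in newborn too. The receptor Igf1r had 985.2, 859.3, 1288.6, 948.2 and 921.9 CPM on the newborn plates and 453.1 CPM on the adult plate, and in Psmb11-high cells it was not called, with a log2 ratio of 0.95. Its ligand Igf2 was near the limit of detection at both ages, at 0.316 and 0.0615 CPM, and was too low to be considered.

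Igfbp5, a secreted protein that binds insulin-like growth factors, was the most read gene among those at least 4-fold higher in adult cTECs. It had 141.5, 71.3, 107.5, 18.8 and 21.4 CPM on the newborn plates and 1536.9 CPM on the adult plate, 19.97-fold more (19.5 to 20.4). The median newborn cell had 1.93 CPM and the median adult cell 729.2 CPM. At least 100 CPM were found in 11 newborn cells (7.914%) and 47 of 77 adult cells (61.04%). Igfbp7, of the same superfamily, had 1.88, 4.76, 0.936, 2.40 and 1.27 CPM on the newborn plates and 85.9 CPM on the adult plate, 38.1-fold more. In Psmb11-high cells the levels were 83.1 and 1300.8 CPM for Igfbp5 and 2.17 and 91.4 CPM for Igfbp7, newborn first. Igfbp4 was also higher in adult cTECs (10.5 against 70.2 CPM), but the median cell was at 0.929 CPM in newborn and at 0 CPM in adult, so its adult level came from few cells.

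Of 33 genes of the extracellular matrix considered, 10 were higher in newborn and 3 in adult, against 5.39% and 8.72% of all genes, and the list held 16307 CPM in newborn (plates 14566 to 17339) and 9703 CPM in adult cTECs. Fbn2, the fibrillin of developing elastic fibres, had 181.5, 179.6, 165.4, 107.05 and 143.5 CPM on the newborn plates and 3.80 CPM on the adult plate. The difference of 41.2-fold (36.3 to 46.9) was the highest among genes with a mean of at least 20 CPM that were read in at least 50% of thinned newborn cells. At least 20 CPM of Fbn2 were found in 73.38% of newborn cells (65.22 to 80.51) and in 2 of 77 adult cells (2.597%, 0.3161 to 9.07). Eln, which encodes elastin, had 61.6, 99.6, 64.5, 54.98 and 49.4 CPM on the newborn plates and 2.72 CPM on the adult plate. Tnc, the glycoprotein tenascin C, was the most read member, with 4474 CPM in newborn (plates 4145 to 5423) and 2041.4 CPM in adult cTECs, and Fn1, fibronectin, had 2671 and 654.6 CPM. In Psmb11-high cells Fbn2 had 141.01 and 5.55 CPM and Eln 59.3 and 0.284 CPM, and Tnc was not called, with a log2 ratio of 0.97.

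Col5a1, a chain of fibrillar collagen V that was not on the list, had 153.4, 182.1, 126.1, 125.7 and 148.8 CPM on the newborn plates and 15.9 CPM on the adult plate. Neither were Col27a1, another fibrillar collagen, which had 192.3 and 24.8 CPM, and the secreted protease Adamts17, which had 67.6 and 8.33 CPM. On the list, Frem2 and Frem1, which anchor epithelia to the basement membrane, were higher in newborn cTECs (4.81-fold and 6.04-fold). Among laminins, which build the basement membrane, Lama5 had 559.4 CPM in newborn and 237.7 CPM in adult cTECs and was called, whereas Lama3 had 428.7 and 848.9 CPM, more in adult, and was not. Col7a1, of the anchoring fibrils, was higher in adult cTECs (4.66 against 22.7 CPM).

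Genes of adhesion and guidance were also among those named as higher in newborn cTECs. Nes, the intermediate filament nestin, had 103.9, 172.5, 81.7, 95.8 and 75.5 CPM on the newborn plates and 4.87 CPM on the adult plate. Cdh8, a classical cadherin, had 173.5, 133.4, 145.4, 202.4 and 215.02 CPM on the newborn plates and 10.4 CPM on the adult plate. Flrt1, a leucine-rich repeat adhesion protein, had 95.1, 90.9, 115.6, 94.6 and 107.8 CPM on the newborn plates and 5.26 CPM on the adult plate. All 3 separated the 5 newborn plates from the adult plate by over 10-fold. The guidance receptor Sema6a (7.46-fold) and the adhesion receptors Adgrl3 (4.63-fold) and Adgrb2 (6.67-fold) were higher in newborn cTECs. In Psmb11-high cells the log2 ratios of Flrt1, Adgrl3 and Adgrb2 were 5.89, 3.74 and 4.03. Mdk, the heparin-binding growth factor midkine, had 184.8, 219.2, 153.9, 197.02 and 203.01 CPM on the newborn plates and 22.8 CPM on the adult plate. At least 50 CPM of Mdk were found in 87.77% of newborn cells and in 10 adult cells (12.99%), and the newborn cell was the higher in 94.8% of all pairs of a newborn and an adult cell. Olfm4, a secreted glycoprotein, had 76.1 and 6.61 CPM, Ramp3, a partner of the calcitonin receptor family, 59.4 and 6.13 CPM, and Nt5dc2 73.9 and 6.42 CPM.

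Aire, the regulator of tissue-restricted genes in mTECs, was also among them. It had 17.1, 58.6, 18.1, 161.3 and 35.1 CPM on the newborn plates and 3.57 CPM on the adult plate. A read of Aire was found in 95.68% of newborn cells and in 10 of 77 adult cells, yet the median newborn cell had only 11.96 CPM, and 7 newborn cells and 1 adult cell reached 100 CPM. The newborn plates also held mTEChi cells, in which Aire had 1158.2 to 1800.4 CPM by plate, while the adult plate held none. Fezf2 and Cd80, which mTEChi cells also express, had 14.02 and 11.3 CPM in newborn and 20.8 and 11.2 CPM in adult cTECs, and were not called. In Psmb11-high cells Fezf2 was called higher in newborn, with 9.54 and 1.37 CPM. The part of the mTEChi cells in the Aire reads of cTECs was not tested.

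**Figure D4:**
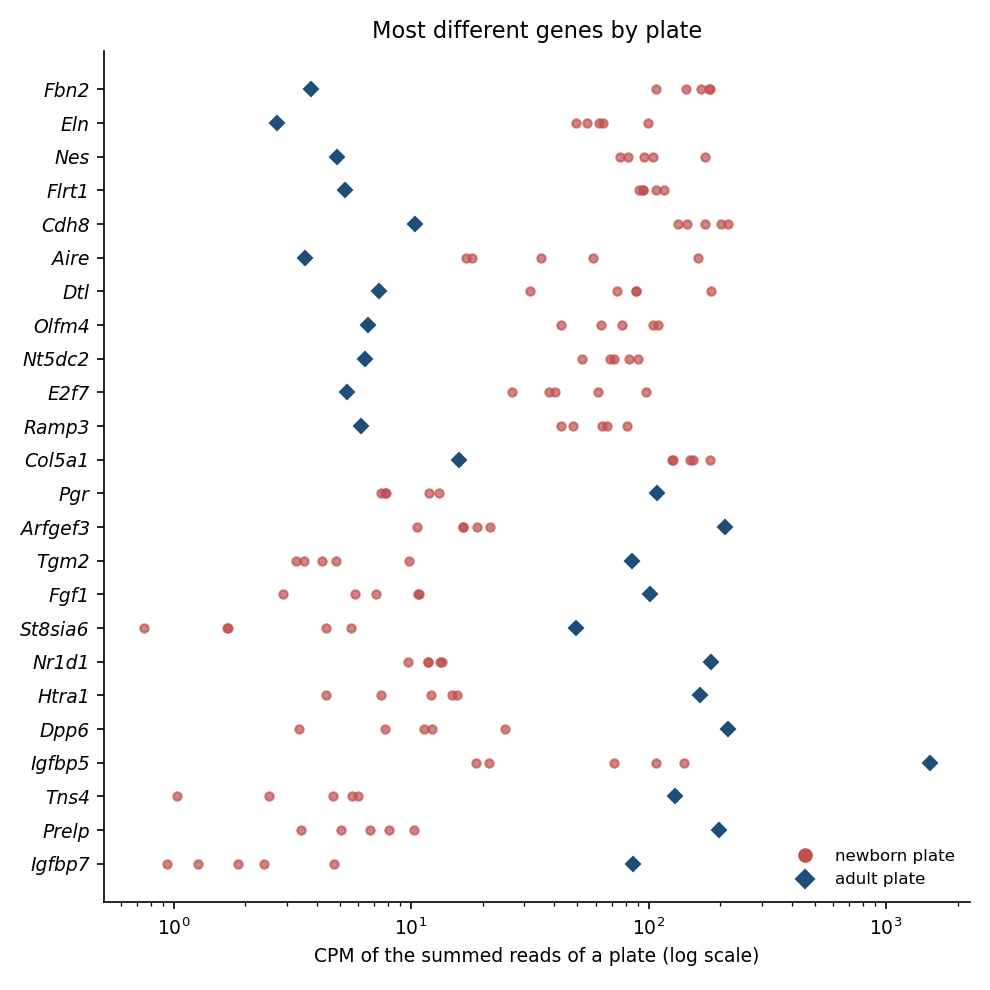
CPM on a log scale of the 12 genes with the highest ratio in each direction that met the rule for naming; each red circle is a newborn plate and each blue diamond the adult plate. In all 24 genes the adult plate lies outside the range of the 5 newborn plates.

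Genes higher in adult cTECs included nuclear receptors. Pgr, the progesterone receptor, had 7.84, 11.9, 7.77, 7.48 and 13.1 CPM on the newborn plates and 108.7 CPM on the adult plate. Nr1d1, a repressor of the circadian clock, had 13.5, 11.7, 9.74, 13.2 and 11.8 CPM on the newborn plates and 183.5 CPM on the adult plate. Esr1, an oestrogen receptor named after its values were seen, had 2.81 and 28.1 CPM. The glucocorticoid receptor Nr3c1, named likewise, had 151.2, 152.95, 183.1, 143.1 and 181.99 CPM on the newborn plates and 217.3 CPM on the adult plate, under 2-fold more. In Psmb11-high cells Pgr had 9.67 CPM in newborn and 87.7 CPM in adult, and Nr1d1 12.4 and 129.5 CPM. Adult cTECs were male. In the 74.82% of newborn cells with more reads of Y-linked genes than of Xist, the log2 ratio of Pgr was -3.59, against -3.52 with all newborn cells.

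Genes of secreted and membrane proteins were also named as higher in adult cTECs. Abca1, which exports cholesterol, had 103.3, 100.1, 84.9, 48.4 and 136.4 CPM on the newborn plates and 806.7 CPM on the adult plate, and the adult cell was the higher in 95.03% of cell pairs. The secreted protease Htra1 had 4.37, 7.46, 15.5, 12.1 and 14.9 CPM on the newborn plates and 165.02 CPM on the adult plate. Prelp, a small proteoglycan, had 6.23 and 198.3 CPM (31.8-fold), and the growth factor Fgf1 7.01 and 101.5 CPM (14.5-fold). Tgm2, a transglutaminase that crosslinks proteins, was 14.5-fold higher, Tns4, a tensin of focal adhesions, 28.3-fold higher, and Thbd, thrombomodulin, 14.2-fold higher. In Psmb11-high cells the log2 ratios of Prelp and Tns4 were -4.06 and -3.79, against -4.99 and -4.82 in all cells. Subunits of ion channels were among them, with Dpp6, a partner of potassium channels, at 12.4 and 216.8 CPM and the sodium channel Scn1a at 20.4 and 224.6 CPM. Gna14, a G protein subunit, had 8.95 and 92.3 CPM and was read in 94.8% of thinned adult cells. All of these except Thbd were read in over 60% of thinned adult cells, and Thbd in 49.4%.

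The highest ratio of any gene with over 100 CPM in adult cTECs was that of Cr2, complement receptor 2, and it came from few cells. Cr2 had 3.45, 2.52, 3.09, 3.34 and 6.11 CPM on the newborn plates and 208.6 CPM on the adult plate, but the median adult cell had 1.05 CPM. At least 20 CPM were found in 12 adult cells (15.58%) and 7 newborn cells (5.036%). In Psmb11-high cells Cr2 had 3.40 CPM in newborn and 4.88 CPM in adult and was not called. It was named after its values were seen.

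The machinery of cortical antigen processing gave 1 call. None of 14 genes of this list was higher in newborn, against 5.39% of all genes, and only Psmb8 was higher in adult, against 8.72%. The median log2 ratio was 0.12. The median was -0.074 in marker-positive and -0.28 in Psmb11-high cells. Psmb8, an immunoproteasome subunit, had 12.6, 14.9, 13.9, 13.6 and 15.01 CPM on the newborn plates and 39.96 CPM on the adult plate. The other immunoproteasome subunits, Psmb9 (266.2 against 299.99 CPM) and Psmb10 (267.5 against 204.2 CPM), were not called. Ctsl, the protease that matures MHC class II in the cortex, had 1456.5 and 1185.4 CPM, and the endocytic receptor Ly75 had 1331.1 and 1452.2 CPM. With 5 newborn plates as the only spread, such values do not show that the ages were equal.

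Of 14 MHC class I genes, 2 were higher in adult, against 8.72% of all genes, and none in newborn, with a median log2 ratio of -0.57. Nlrc5, the transactivator of class I genes, had 73.6, 76.7, 86.6, 75.7 and 81.6 CPM on the newborn plates and 188.8 CPM on the adult plate. The class I gene H2-Q7 had 69.3, 70.7, 61.7, 83.8 and 72.2 CPM on the newborn plates and 199.6 CPM on the adult plate. H2-K1 (744.9 against 1187.1 CPM), H2-D1 (475.1 against 768.2 CPM) and B2m (496.8 against 840.6 CPM) lay under 2-fold. Reads of H2-Q7 may be shared with its close paralogs. None of the 14 class II genes was called, against 5.39% of all genes higher in newborn and 8.72% in adult. In marker-positive cells 1 class II gene was called in each direction, and in Psmb11-high cells 1 was called higher in adult. H2-Aa had 949.9, 1058.9, 1246.5, 1132.3 and 1111.1 CPM on the newborn plates and 970.9 CPM on the adult plate, and Cd74, the invariant chain, 1580.7 and 1458.5 CPM. In Psmb11-high cells the log2 ratio of Nlrc5 was -1.53, that of H2-Q7 -1.76 and that of Psmb8 -1.35.

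Of 14 genes considered that support T cell development, none was called, against 5.39% of all genes higher in newborn and 8.72% in adult. Dll4, the Notch ligand that commits progenitors to the T lineage, came closest, with 391.9, 332.9, 488.2, 404.7 and 301.2 CPM on the newborn plates and 203.3 CPM on the adult plate, 1.86-fold. The cytokine Il7 had 411.7, 349.4, 477.6, 448.6 and 414.5 CPM on the newborn plates and a summed newborn level 1.45-fold that of the adult plate. Both adult values lay under all 5 newborn plates. The chemokines Ccl25 (718.7 against 642.6 CPM) and Cxcl12 (1099.6 against 1237.3 CPM) and the cytokine Kitl (178.4 against 161.6 CPM) lay closer. Foxn1 had 630.5, 593.3, 777.99, 607.003 and 666.5 CPM on the newborn plates and 325.9 CPM on the adult plate. At 1.97-fold it just missed the 2-fold limit, and the newborn cell was the higher in 80.5% of cell pairs. In Psmb11-high cells it had 688.6 and 484.9 CPM, and the log2 ratio of Dll4 was 0.30, against 0.89 in all cells. Both genes were called higher in newborn without the cycling cells, with log2 ratios of 1.05 for Foxn1 and 1.04 for Dll4. The other transcription factors of the list had log2 ratios between -0.60 (Isl1) and 0.71 (Hoxa3).

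**Figure D5:**
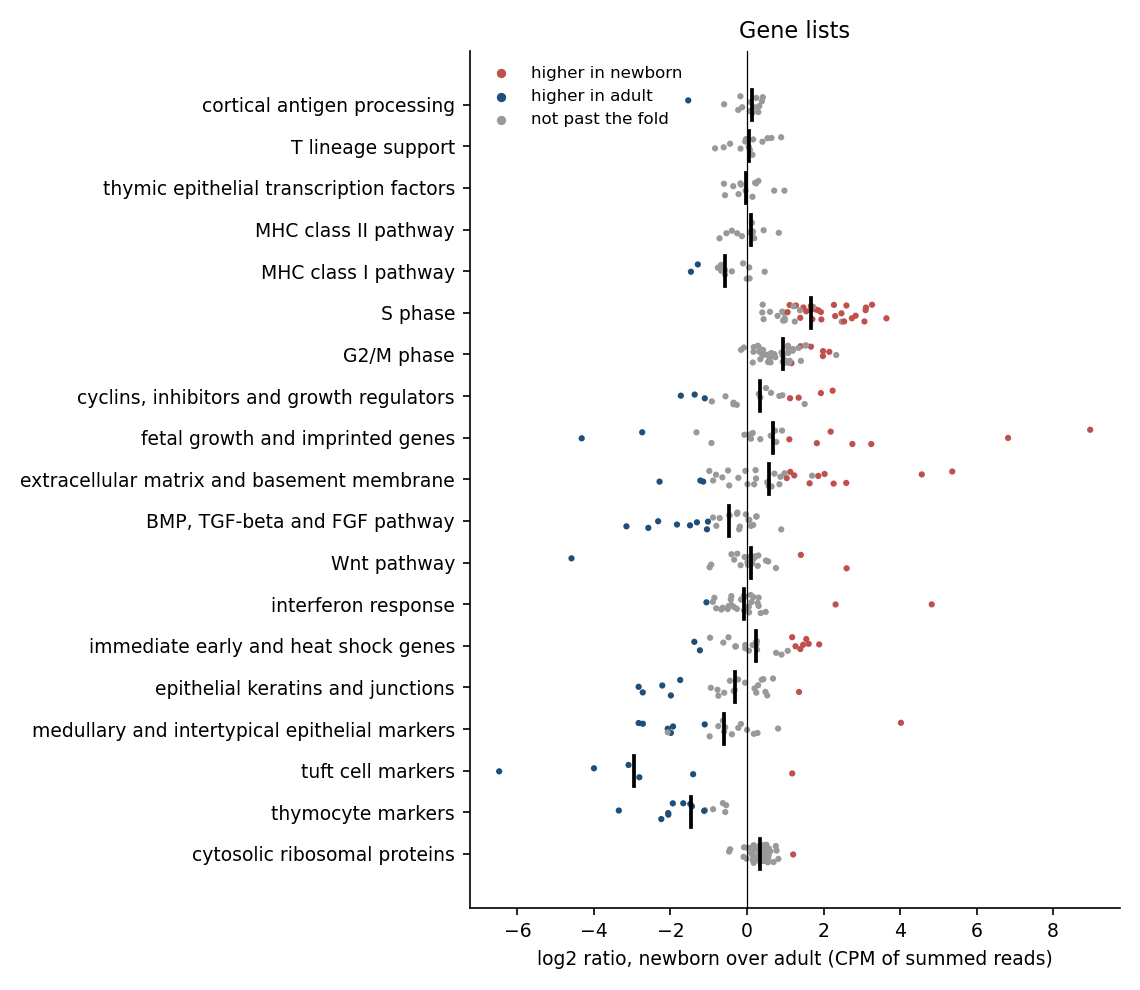
Log2 ratio of newborn over adult CPM for the considered genes of 19 gene lists; each point is a gene, red if called higher in newborn, blue if called higher in adult and grey if neither, and bars mark list medians. The S phase list lies wholly above 0, whereas the cortical antigen processing, T lineage support and MHC class II lists lie around 0.

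Of 25 genes considered of the BMP, TGF-beta and FGF pathways, 8 were higher in adult and none in newborn, against 8.72% and 5.39% of all genes, with a median log2 ratio of -0.46. The 4 Id genes, targets of BMP signals that block bHLH factors, were among them: Id2 had 8.61, 7.05, 6.46, 12.5 and 7.48 CPM on the newborn plates and 77.5 CPM on the adult plate. Id3 had 18.6 and 66.2 CPM, Id1 7.99 and 19.8 CPM, and Id4 31.3 and 63.5 CPM. The ligand Bmp4 was 5.97-fold higher in adult, its antagonist Fst had 7.46 and 37.3 CPM, while Bmp7 had 247.7 and 133.1 CPM and was not called. In Psmb11-high cells 5 genes of this list were higher in adult and 1 in newborn, and the median log2 ratio was 0.00. Id1 and Id4 were then under 2-fold, with log2 ratios of -0.91 and -0.94.

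Of 24 Wnt genes, 2 were higher in newborn and 1 in adult, against 5.39% and 8.72% of all genes. The same shares apply to the lists that follow, and were 6.89% and 5.93% in Psmb11-high cells. Kremen2, a receptor of Wnt inhibitors, had 44.7 and 7.36 CPM, the Wnt receptor Fzd2 108.4 and 40.8 CPM, and the secreted protein Dkk3 0.623 and 14.97 CPM, which was not called in Psmb11-high cells. Of 30 interferon response genes, 2 were higher in newborn and 1 in adult. Cxcl10, a chemokine induced by interferon, had 241.04, 342.8, 377.3, 308.7 and 340.4 CPM on the newborn plates and 61.5 CPM on the adult plate, and the related Cxcl9 was 28.4-fold higher in newborn. Of 27 immediate early and heat shock genes, 7 were higher in newborn and 2 in adult, against 11 and none of 25 in Psmb11-high cells, and Fosb had 252.7 and 82.6 CPM, Fos 354.5 and 134.9 CPM and Jun 394.7 and 142.7 CPM. Of 28 autophagy and lysosome genes, Gabarapl1 (32.6 against 71.9 CPM) and Ctsh (20.5 against 100.4 CPM) were higher in adult, but in Psmb11-high cells the log2 ratio of Ctsh was 1.83. None of 21 genes of cholesterol synthesis was called. Of 57 genes of cytosolic ribosomal proteins, only Rpl27 was called, but 52 had a positive log2 ratio, with a median of 0.35. Of 12 histone genes considered, 3 were higher in newborn and 1 in adult, and in Psmb11-high cells none and 2. Hist1h2bc, the latter, had 16.3 and 59.5 CPM.

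Markers of other cells differed between the groups. Of 14 thymocyte markers considered, 9 were higher in adult cTECs and none in newborn, against 8.72% and 5.39% of all genes. All had a negative log2 ratio. They summed to 298.5 CPM in newborn (plates 196.004 to 569.2) and 740.1 CPM in adult. Ptprc, which encodes CD45, had 12.1, 33.9, 44.01, 32.3 and 8.75 CPM on the newborn plates and 61.7 CPM on the adult plate, and reached 20 CPM in 10 newborn and 12 adult cells, with medians of 0. Without those cells, 6.21% of 12696 genes were higher in newborn and 9.04% in adult, and of the 4 thymocyte markers still considered 1 was higher in newborn and none in adult. A leukocyte gene chose the cells left out, so the levels of these markers are not independent of that choice. Cd8b1 and Cd8a, then too low to be considered, had log2 ratios of -2.32 and -1.40. The G2/M list then had 15 of 49 genes higher in newborn. No marker of the list was at 0 in either group. In Psmb11-high cells 14 of 16 thymocyte markers considered were higher in adult, against 5.93% of all genes. The list there summed to 319.5 CPM in newborn and 1130.8 CPM in adult. Without the cells that had both Mki67 and Top2a at 20 CPM, 2 of 14 thymocyte markers were higher in adult and none in newborn. Of all genes, 9.2% and 4.15% were then called. The median log2 ratio of the list was then -0.57, against -1.46 in all cells, and the sums were 384.5 CPM in newborn and 550.1 CPM in adult. Whether the cells left out included thymocytes was not tested.

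Of 6 tuft cell markers considered, 5 were higher in adult and Pou2f3 in newborn. Of all genes, 8.72% were higher in adult and 5.39% in newborn, 5.69% and 5.97% in marker-positive cells and 5.93% and 6.89% in Psmb11-high cells. The tuft list summed to 101.4 CPM in newborn (plates 91.4 to 119.5) and 262.99 CPM in adult. Dclk1 and Trpm5 both reached 20 CPM in 3 adult and 2 newborn cells. In marker-positive and in Psmb11-high cells, 3 tuft markers were considered, with 1 higher in adult and 1 in newborn. The list then summed to 101.5 CPM in newborn and 75.7 CPM in adult marker-positive cells. In Psmb11-high cells the sums were 95.3 and 67.8 CPM, and Trpm5 had 3.62 and 3.15 CPM. Of 20 medullary and intertypical epithelial markers, 6 were higher in adult and only Aire in newborn, but in marker-positive cells 2 of 18 were higher in adult and 3 in newborn, and in Psmb11-high cells 3 of 15 in each. Ly6a had 22.7 and 149.4 CPM, with medians of 1.91 and 1.78 CPM, and Cldn3 5.30 and 37.7 CPM. In Psmb11-high cells Cldn3 had 2.55 and 0.491 CPM, more in newborn. Krt5 (262.8 against 441.5 CPM) and Ccl21a (15.8 against 24.4 CPM) were not called, but Ccl21a was called higher in adult in Psmb11-high cells, with a log2 ratio of -1.08. Of 23 keratins and junction genes, 5 were higher in adult and 1 in newborn, with a median log2 ratio of -0.32. In marker-positive cells 1 of 20 was higher in adult and 3 in newborn (median 0.27), and in Psmb11-high cells 2 of 19 in each (median 0.24). Krt8, a keratin of cTECs, had 673.96 and 500.7 CPM and Epcam 180.7 and 225.7 CPM. Fibroblast and pericyte markers summed to 185.8 and 190.5 CPM, with Rgs5 and Col3a1 higher in newborn and Dcn in adult. Endothelial, macrophage and dendritic cell, and red cell markers summed to under 40 CPM in both groups, with 1, 2 and 5 markers at 0 in adult cells. The part of these cells in the other differences was not tested, beyond the values in Psmb11-high cells.

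Xist, read in female cells, had 413.1, 324.5, 31.6, 224.1 and 434.4 CPM on the newborn plates and 18.7 CPM on the adult plate, and reads of Y-linked genes exceeded those of Xist in 74.82% of newborn cells and in 75 of 77 adult cells. The newborn cells thus came from both sexes. With newborn cells restricted to those, 5.1% of 12789 genes were higher in newborn and 9.2% in adult.

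The same genes were then read in mTECs, whose newborn cells share plates 16 to 20 with the newborn cTECs, while adult mTECs lay on other plates. Adult mTECs were summed in pools by the age (4, 5, 6 or 8 weeks) and sex of their labels. The values stand side by side without a test, and the share of all genes whose ranges do not overlap was not computed. Fbn2 had 30.4 to 89.97 CPM on newborn and 5.63 to 9.75 CPM in adult pools of mTEChi, and 81.2 to 179.8 and 8.01 to 25.2 CPM in mTEClo. Hmga2 had 33.7 to 48.6 CPM in newborn mTEClo and at most 0.0426 CPM in adult pools of mTEClo. For both genes newborn plates and adult pools of mTEClo did not overlap. Igfbp5 had 14.8 to 158.3 and 53.5 to 163.9 CPM in mTEChi, which overlapped, and 34.3 to 136.98 and 1214.8 to 2819 CPM in mTEClo, which did not. Igfbp7 stayed under 11 CPM in every mTEC plate and pool, against 85.9 CPM in adult cTECs. Cdh8 had 24.8 to 66.9 and 22.9 to 47.7 CPM in mTEChi, which overlapped, and 20.9 to 88.6 and 2.18 to 6.84 CPM in mTEClo. Dtl had 90.4 to 162.7 CPM in newborn and 0.791 to 2.13 CPM in adult mTEClo, and 11.7 to 55.8 and 6.35 to 55.6 CPM in mTEChi. Abca1 had 38.2 to 143.8 CPM in newborn and 593.2 to 657.2 CPM in adult mTEClo.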

How the data were processed

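RamDA-seq reads of single cells were trimmed and cleaned by the authors with fastp 0.20.0, aligned to mm10 with STAR 2.7.3a and the Ensembl annotation, freed of poorly mapped reads (SAMtools 1.9) and duplicates (Picard 2.21.1), and counted per gene with HTSeq 0.11.2 without strand, so antisense and overlapping genes cannot be separated. The deposited whole-number counts were used as they stand. The authors' second table of scaled values was not used. Gene names and positions came from GENCODE M21 (GRCm38), and promoters from RefSeq (GRCm38.p6).

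The 216 WT cTECs (139 newborn, 77 adult) were taken from the 1980 cells of the series. Of 12803 genes considered, 690 were called higher in newborn and 1117 in adult. Psmb11-high cells numbered 125 and 44, and marker-positive cells 134 and 59. Counts were summed per plate and per group and divided by the total to give CPM. With 1 adult plate no test, p-value or standard error was computed. Ratios carry exact conditional binomial 95% intervals, and shares carry exact (Clopper-Pearson) intervals. A group with no read was set to 3 reads. Genes needed a mean of at least 5 CPM, a ratio of at least 2 and an adult plate outside the newborn range. Cells were also thinned to 200000 reads, which is the authors' minimum.

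Named were preset genes, the 12 genes per direction with the highest ratio (mean of at least 20 CPM, read in at least 50% of thinned cells of the higher group and at least 2-fold without any newborn plate), up to 8 more from marker-positive cells, and up to 3 per direction of each of 27 gene lists, passing over predicted genes, pseudogenes, mitochondrial and sex-linked genes. Members of a list given with values beyond these were picked after their values were seen. Some named genes are not reported here. The members, lists and rules were chosen with earlier results of these data known. Alternatives were other scalings (edgeR 4.0.16, DESeq2 1.42.0, R 4.3.3), filters, subsets of cells and each newborn plate left out. Python 3.11.15 did the rest.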

Additional observations from a re-analysis of the deposited data

Results flagged for a closer look

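Among 73 results checked over the 5 newborn plates, 5 had a plate that stood apart from the other plates, which chance gives in about 1 of 20 results. Aire reached 161.3 CPM on plate 19, and its values by plate were 17.1, 58.6, 18.1, 161.3 and 35.1 CPM. Ctsl reached 1932.1 CPM on plate 18, and Tgm2 reached 9.78 CPM on plate 16, still under the 84.9 CPM of the adult plate. The interferon response list had its lowest sum, 3489.7 CPM, on plate 19, and the cholesterol synthesis list its highest sum, 1541.7 CPM, on the same plate.

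Enpep ran in opposite directions in cTECs and mTEClo. It was lower on all 5 newborn cTEC plates than on the adult cTEC plate, with a log2 ratio of -1.08. In mTEClo it had 36.2 to 78.9 CPM on newborn plates and 2.51 to 21.6 CPM in adult pools, with a log2 ratio of 2.05. The difference between the sorts was not tested. Psmb11 was likewise higher in newborn than in adult mTEClo, at 164.4 to 441.97 against 0.667 to 14.1 CPM.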

How the results depend on the processing

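The share of considered genes called depended on the limits. With a minimum mean of 1 CPM, 6.73% of 18136 genes were higher in newborn and 11.6% in adult, with 20 CPM 3.79% and 5.63% of 8476 genes, with no minimum 6.86% and 13.8% of 39940 genes, and with a 4-fold limit 1.59% and 3.24%. In marker-positive cells 5.69%, and in Psmb11-high cells 5.93%, were higher in adult, against 8.72% in all cells. Other scalings and subsets kept both numbers within 1.5 times. Leaving out 1 newborn plate at a time gave 5.13% to 5.86% of genes higher in newborn and 8.69% to 9.12% in adult, marker-positive newborn shares of 95.65% to 97.35% and newborn shares with Mki67 and Top2a of 21.74% to 29.2%. With a marker limit of 20 CPM, 90.91% of adult cells were marker-positive. TMM and DESeq2 size factors gave median log2 ratios of all genes of -0.029 and 0.00052, and no gene named by rule moved by more than the spread of the newborn plates under them.

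Called genes changed sign in some subsets, and the cause was not tested. In marker-positive and Psmb11-high cells the log2 ratios were 1.62 and 0.80 for Lama1, 1.72 and 0.77 for Lyz2, 1.07 and 0.30 for Cdkn2b, 1.30 and 1.48 for Cldn7, 0.67 and 1.83 for Ctsh, 2.55 and 2.37 for Cldn3, and 0.63 and 0.68 for Sh2d6. In Psmb11-high cells Col4a6 had 0.087 and Trpm5 0.20. Without cells with Ptprc Sh2d6 had 1.49. Without cycling cells Ccne1 had -0.29 and Hist1h1a -0.35, and Xist had -0.36 with newborn cells of more Y than Xist reads. No paired analysis was possible because the numbers that groups share in the labels number cells and the results come from no test. Of genes that were not called, Psmb11, which chose these cells, had -0.25 in Psmb11-high cells, Prss16 -0.43, Ccl25 -0.34, Kitl -0.04, Ctsl -0.03 and Epcam 0.20, each with the other sign than in all cells. There the called log2 ratios of Cxcl9, Ramp3, Rgs5 and Frem1 were smaller, at 4.06, 2.66, 2.15 and 1.92, as were those of Ly6a, Igfbp4 and Dcn, at -1.80, -1.45 and -1.41, and those of Cdkn1c, E2f1, Fosb and Lama5 were larger, at 3.09, 3.31, 3.00 and 2.65. In marker-positive cells E2f1, Cdk1, Top2a, Igf1r, Dclk1, Trpm5 and Dkk3 were not called, with log2 ratios still at 1.92, 1.63 and 1.52 for the first 3. Without cycling cells Top2a, Cxcl9 and Fosb were not called, although their log2 ratios of 3.27, 4.38 and 1.63 were past the fold. They missed the minimum mean or lay within the newborn range, and Top2a had helped to choose the cells left out. Enpep at -0.98 and Gabarapl1 at -0.93 were then not called either. The limits on Psmb11 and Ptprc were added after the data were seen.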

Other observations

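The cells of the cTEC sort with under 50 CPM of Psmb11 differed between the ages. The 11 newborn cells had median levels of 1148.8 CPM of Krt5, 158.6 CPM of Krt14 and 84.5 CPM of Ccl21a, genes of medullary and intertypical epithelium. The 30 adult cells had medians of 52.9, 54.7 and 0.989 CPM of these genes, and 341.2 CPM of Ly6a against 6.43 CPM in the newborn cells. The adult cells were mixed in Krt5, with quartiles of 14.1 and 816.5 CPM. Krt5 reached 200 CPM in 9 of the newborn and 13 of the adult cells. Pdpn, of the same list of markers, had medians of 219.3 CPM in newborn and 164.5 CPM in adult cells. Other members of that list went both ways. Apoe had medians of 47.9 CPM in newborn and 355.5 CPM in adult cells. Aire had medians of 32.2 and 0 CPM and Cldn4 of 37.1 and 2.39 CPM, newborn first. The mean of Cldn4 was the higher in adult cells, at 76.2 and 150.4 CPM. Several of the newborn cells, but few of the adult cells, reached 1500 CPM of S phase genes. Both had Enpep, at medians of 64.4 CPM in newborn and 119.8 CPM in adult cells, and Epcam at 426.4 and 330.9 CPM. Foxn1 had a median of 219.5 CPM in the newborn cells and 51.7 CPM in the adult cells.

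Other genes of the circadian clock were looked up after Nr1d1 was seen. Of these, Tef, Ciart, Per3, Cry2 and Clock are not reported here. Dbp had 17.4, 16.4, 21.4, 17.9 and 20.5 CPM on the newborn plates and 43.6 CPM on the adult plate, and Bhlhe41 had 74.8 and 189.1 CPM, both called higher in adult. Nr1d2 (55.01 against 84.999 CPM), Per2 (26.6 against 26.8 CPM), Per1 (70.5 against 64.5 CPM), Cry1 (17.8 against 9.21 CPM) and Arntl (38.1 against 46.6 CPM) were not called. The hour at which the mice were taken is not given in the sources used here.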
